A study of Rattus norvegicus with 30 samples.

Results

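The genes described are the nuclear-encoded subunits of the mitochondrial respiratory chain and ATP synthase in the lung of newborn rats, in a hyperoxia model of bronchopulmonary dysplasia, a lasting lung injury of infants born early and treated with oxygen. They were chosen by name: protein-coding rows outside the mitochondrial chromosome whose symbols begin with Nduf, Uqcr, Cox4 to Cox8 or Atp5, together with Sdha to Sdhd and Cycs. This rule gave 96 genes of 35224 in the deposited table, with 94 distinct symbols, because Cox6b1 and Uqcrb each have 2 rows on different chromosomes. It also took in 8 complex I assembly factors, the Ndufaf genes, which are not subunits of the finished complex. By role the genes comprised 7 core and 29 accessory subunits of complex I, 4 of complex II, 9 of complex III, 21 of complex IV, 15 of ATP synthase, cytochrome c (Cycs), the supercomplex factor Cox7a2l and the ATP synthase inhibitor Atp5if1.

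The 30 libraries form 10 groups of 3, made from whole lung of pups labelled as kept in 85% oxygen or in 21% oxygen (room air) and taken at 5 ages, day 1, day 3, day 7, day 10 and day 14. The labels used here name no strain, sex or genotype. The labels state 12 rats per arm and there are 15 libraries per arm, and no label ties a library to its own animal; p-values therefore measure sample-to-sample spread, part of which may be technical. Against those labels stand 2 genes that high oxygen is known to induce in rodent lung. Cdkn1a, an inhibitor of cell division, had 382 to 462 CPM (read counts scaled to the size of the library, by TMM) in the libraries labelled 21% at day 14 and 25.3 to 34.0 CPM in those labelled 85%, though the arms overlapped at days 1 and 7. Nqo1, a quinone reductase, was lower in every library labelled 85% than in any labelled 21% of the same day, on all 5 days. The sample titles begin with A in the libraries labelled 85% and with O in those labelled 21%. What these letters stand for is not stated in the labels used here. Groups are therefore called 85%-labelled and 21%-labelled, and every direction rests on those labels.

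Electrons from NADH enter the chain at complex I and those from succinate at complex II, pass through ubiquinone to complex III and through cytochrome c to complex IV, which reduces oxygen, and the proton gradient that this builds drives ATP synthase. A few subunits are encoded by mitochondrial DNA and the rest by nuclear genes, which tend to be short, highly expressed and regulated together. Several complex IV subunits come as pairs of paralogs. In mammals Cox4i2, known as the lung isoform, and Ndufa4l2 are induced by low oxygen through hypoxia-inducible factor and take the place of Cox4i1 and Ndufa4, while Cox6a2, Cox7a1 and Cox8b are the forms of heart and skeletal muscle.

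The promoters of 3 of the genes are shown because the results turn on them: Cycs, the member with the smallest p at day 1, Cox4i1, the ubiquitous partner of Cox4i2, and Ndufa4l2. Each runs from 250 bases before to 50 bases after the RefSeq gene start, 5′ to 3′ on the strand of the gene, in build GRCr8. Capitals mark exact matches, on either strand, to 4 short motifs: GCATGCGC for NRF1, CCGGAAG for ETS factors such as GABPA, AAGATGGC for YY1 and ACGTG for the core of a hypoxia response element.
Cycs (chr4:80984718-80985017, minus strand): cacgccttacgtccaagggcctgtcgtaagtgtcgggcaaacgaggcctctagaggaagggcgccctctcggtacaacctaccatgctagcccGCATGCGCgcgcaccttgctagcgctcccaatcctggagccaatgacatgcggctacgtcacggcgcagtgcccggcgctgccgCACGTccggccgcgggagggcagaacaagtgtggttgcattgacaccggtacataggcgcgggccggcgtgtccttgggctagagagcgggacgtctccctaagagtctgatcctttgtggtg
Cox4i1 (chr19:65630133-65630432, plus strand): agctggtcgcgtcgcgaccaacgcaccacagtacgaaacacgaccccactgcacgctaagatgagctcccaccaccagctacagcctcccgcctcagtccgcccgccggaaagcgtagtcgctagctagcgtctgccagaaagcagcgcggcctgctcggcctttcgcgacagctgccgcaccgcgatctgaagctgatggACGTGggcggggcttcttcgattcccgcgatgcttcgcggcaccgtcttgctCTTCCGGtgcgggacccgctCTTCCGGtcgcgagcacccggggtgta
Ndufa4l2 (chr7:65241919-65242218, plus strand): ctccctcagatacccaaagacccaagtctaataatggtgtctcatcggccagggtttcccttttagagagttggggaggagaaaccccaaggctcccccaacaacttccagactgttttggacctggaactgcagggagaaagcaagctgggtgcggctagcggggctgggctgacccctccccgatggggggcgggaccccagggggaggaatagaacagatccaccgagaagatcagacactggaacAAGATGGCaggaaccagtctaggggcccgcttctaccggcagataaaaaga
A RefSeq promoter was found by symbol for 81 of the 94 member symbols. The NRF1 letters were in 12 of these 81 promoters (14.8%) and in 2.63% of the 27376 promoters of other genes. The ETS letters were in 27.2% against 9.16%, and the YY1 letters in 19.8% against 3.39%. The hypoxia core, which is only 5 letters long, was in 28.4% against 19.7%. In these windows the Cycs promoter held the NRF1 letters and 1 hypoxia core. The Cox4i1 promoter held the ETS letters at 2 places just past the start and 1 hypoxia core. The Ndufa4l2 window held only the YY1 letters, at the RefSeq start. An ATG lies inside that match and opens a reading frame without a stop up to the end of the window. The match may therefore be the start of the coding sequence. Whether this window holds the promoter of Ndufa4l2 was not tested. ETS and YY1 letters can overlap, and a match is a description of the letters, not of binding.

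Levels are comparable between genes only per unit of length, for which the deposited FPKM values (fragments scaled by gene length and library size) were used. The highest were Atp5f1b, the catalytic beta subunit of ATP synthase, at 544 ± 69.3 FPKM (SD, n = 30), its epsilon subunit Atp5f1e at 516 FPKM on average and Cox4i1 at 499 FPKM. The oxygen-sensitive paralogs were lower, with Cox4i2 between 6.51 and 152 FPKM and Ndufa4l2 between 7.15 and 76.5 FPKM over the 30 libraries. The muscle forms Cox8b, Cox6a2 and Cox7a1 averaged 5.21, 3.95 and 0.344 FPKM. Of the 96 genes 92 passed the filter on low counts; Cox7b2 had 1 count in all libraries together, and Cox6c-ps1, Cox8c and Ndufa10l1 had none. The accessory subunit Ndufa1 ranged from 0 to 30.9 CPM and was high in 1 library of each of 5 groups, and Atp5pb, a stalk subunit of ATP synthase, ranged from 0.220 to 15.7 CPM. Short nuclear respiratory genes have processed copies in the genome, so how reads were split between copies is uncertain for these and for the paired Cox6b1 and Uqcrb rows.

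Total counts per library ran from 14951463 to 18074590. The summed share of the 96 genes in nuclear gene counts was 1.09% to 1.31% in the 3 libraries labelled 85% and 0.777% to 0.837% in the 3 labelled 21% at day 1, so the groups did not overlap. At day 14 the order was the other way, with 0.643% to 0.683% against 0.711% to 0.961%, again without overlap. At days 3, 7 and 10 the arms overlapped. A property of the libraries moved with this share: the Spearman correlation between a gene's level and its length, taken over nuclear protein-coding genes within each library, was 0.0850 to 0.156 against 0.230 to 0.257 at day 1 and 0.284 to 0.302 against 0.198 to 0.262 at day 14. The members are short, with a median length of 728.5 bases and 61 of 96 under 1000 bases. The mitochondrially encoded share of counts also differed at day 1, at 19.1%, 5.31% and 11.5% in replicates 1, 2 and 3 against 2.71% to 3.03%. At day 14 it was lower in the 85%-labelled libraries, at 2.69% to 2.77% against 3.33% to 3.77%, again without overlap.

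**Figure D1:**
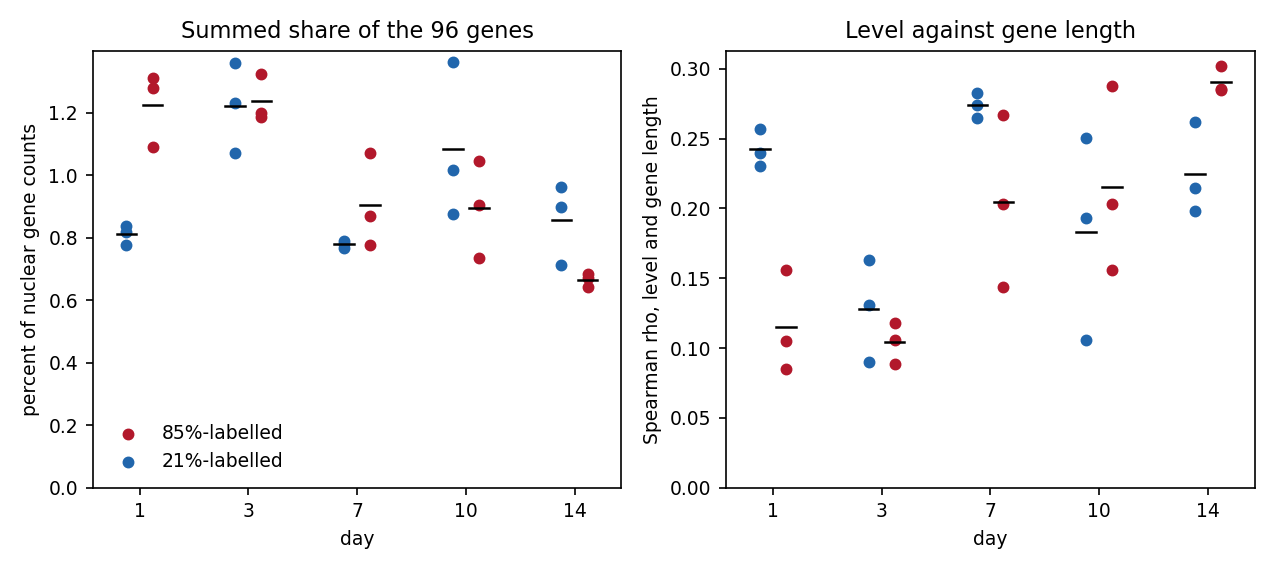
Left, the summed counts of the 96 respiratory chain genes as a percent of nuclear gene counts, and right, the Spearman correlation between level and gene length, in each library by day. Points are libraries, bars are means of 3, red is 85%-labelled and blue 21%-labelled; where the share is high the correlation is low, as at day 1 (85%) and day 3 (both arms).

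Cox4i2 and Ndufa4l2, the paralogs induced by low oxygen, were called higher in the 85%-labelled libraries both at day 14 and in the mean over the days. Cox4i2 (chromosome 3, 148234193 to 148245416 in the deposited table, whose rat build the labels do not name) had 53.1, 60.05 and 49.0 CPM in the 85%-labelled libraries at day 14 and 6.89, 10.7 and 10.6 CPM in the 21%-labelled ones. All 3 libraries labelled 85% lay far above all 3 labelled 21%, and the log2 difference was 2.52 ± 0.31 (SE; adjusted p = 1.72e-06, edgeR quasi-likelihood test, Benjamini-Hochberg over 17571 genes). Ndufa4l2 (chromosome 7, 70821957 to 70824085) had 29.1, 31.6 and 26.1 CPM against 6.77, 12.1 and 9.05 CPM, a log2 difference of 1.63 ± 0.28 (adjusted p = 1.44e-04). Most other members were lower at that age.

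Averaged over the 5 days, 3 of the 92 tested members were called higher and 0 lower, where a call needs an adjusted p under 0.05 and a log2 size of at least 0.5. The corresponding shares of all genes were 6.32% higher and 6.99% lower. The members called were Cox4i2 (1.31 ± 0.13, adjusted p = 3.04e-07), Ndufa4l2 (0.84 ± 0.12, adjusted p = 3.65e-05) and the muscle form Cox8b, while the median over all members was 0.10. The first 2 were called in each of the 40 alternative fits of that mean, including those with the length correlation (1.15 and 0.71) or the mitochondrial share (1.06 and 0.71) as a covariate and the one without day 1 (1.33 and 0.88), which was chosen after seeing the data. The count of members rose to 6 without the 85%-labelled day 1 replicate 2 and to 5 without the 21%-labelled day 10 replicate 2. At an unadjusted p under 0.05 the count was 17.

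From day 1 to day 14 both genes fell in the 21%-labelled arm. Cox4i2 went from 61.1, 54.1 and 54.5 CPM at day 1 to 29.7, 43.2 and 37.8 CPM at day 7 and to the day 14 values above. At day 3 its level, given further below, had not yet fallen. The fall from day 1 to day 14 was -2.58 ± 0.31 on the log2 scale (adjusted p = 1.48e-06), and that of Ndufa4l2, from 36.4, 35.6 and 36.4 CPM, was -1.95 ± 0.29 (adjusted p = 1.90e-05). In the 85%-labelled arm Cox4i2 changed by -1.29 ± 0.29 and Ndufa4l2 by -1.01 ± 0.27 (adjusted p = 7.50e-04 and 0.00327), but neither was called with the length correlation (-0.10 and 0.0168) or the mitochondrial share (0.16 and -0.27) as a covariate, nor without the libraries above 6% mitochondrial counts (-0.55 and -0.77).

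At day 10, 1 of 92 members was called higher and none lower by edgeR, beside 1.75% and 1.18% of all genes. The median was -0.33 and 86 members had a negative difference; 25 members had an unadjusted p under 0.05, and DESeq2 called 3 higher and 2 lower. The member called was Ndufa4l2, at 34.3, 61.7 and 56.1 CPM against 24.2, 38.0 and 12.0 CPM (1.04 ± 0.27, adjusted p = 0.0360). The groups overlapped by 1 library, and leaving out 85%-labelled replicate 2 or 3 or 21%-labelled replicate 1 or 3 each ended the call, and over 16 alternatives the adjusted p ran from 4.02e-04 to 0.471. Cox4i2 stood at 44.5, 66.3 and 46.0 CPM against 24.7, 40.2 and 14.996 CPM without overlap (0.97 ± 0.29, adjusted p = 0.0697), and passed with the length correlation as a covariate (1.27, adjusted p = 4.94e-04). The members called numbered 3 without 85%-labelled replicate 2 and 2 without 21%-labelled replicate 2 of that day, and 0 when 85%-labelled replicate 3 or else the first or the third 21%-labelled replicate was left out.

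Set against its own partner within a library, which no scaling between libraries can change, the paralog share also differed between the arms. Cox4i2 made up 12.6% to 14.8% of the summed FPKM of Cox4i1 and Cox4i2 in the libraries labelled 85% at day 14, against 1.42% to 3.12% in those labelled 21%. The shares did not overlap on any of the 5 days, with 13.1% to 14.98% against 8.09% to 9.34% at day 3 and 9.07% to 11.4% against 3.43% to 4.83% at day 10. At day 1 they almost touched, with 12.11% to 16.78% against 11.61% to 12.08%. For Ndufa4l2 beside Ndufa4 the arms overlapped at days 3 and 7, and at day 1 the share was lower in the 85%-labelled libraries (18.2% to 22.3% against 22.9% to 23.9%). From day 10 it was higher there, with 22.6% to 28.3% against 7.80% to 12.8% at day 10 and 21.2% to 24.9% against 4.38% to 9.05% at day 14. With 3 libraries against 3 an exact permutation test of such a share cannot go below p = 0.10, so these are given without a test.

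**Figure D2:**
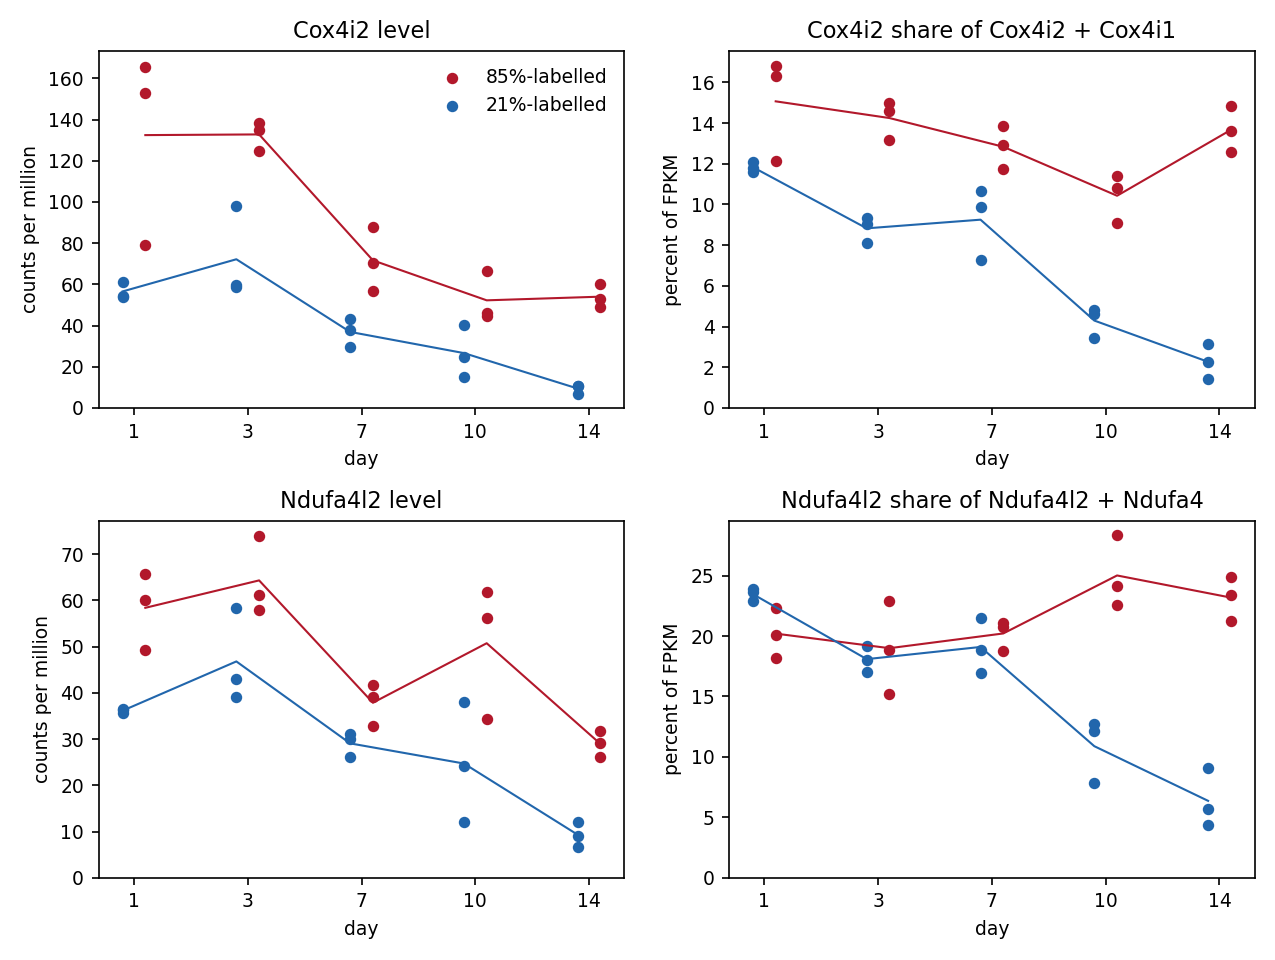
Levels (left, CPM) and shares within the paralog pair (right, percent of summed FPKM) of Cox4i2 and Ndufa4l2 in each library by day, red for 85%-labelled and blue for 21%-labelled, with lines through the means of 3. In the 21%-labelled arm both shares fall, to 1.42% to 3.12% for Cox4i2 and 4.38% to 9.05% for Ndufa4l2 at day 14.

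Both genes are known from single-cell work to be high in lung pericytes, the contractile cells of capillaries, so pericyte markers are given beside them. Of 9 markers, 2 were called higher at day 14, beside 10.5% of all genes. They were Gucy1a1, a subunit of the nitric oxide receptor (2.05 ± 0.14), and Pdgfrb, the receptor that recruits pericytes (1.03 ± 0.14). Higd1b, another pericyte gene, had 0.41 ± 0.33 (adjusted p = 0.406), and the median over the 9 was 0.41. Their summed level was 2363 to 2522 CPM against 1026 to 1975 CPM at day 14, 2170 to 2503 against 1473 to 1629 CPM at day 10 and 1466 to 1742 against 1684 to 1938 CPM at day 1, and none of the 9 was at 0. The part of pericyte number in the Cox4i2 and Ndufa4l2 differences was not tested, and in whole lung fewer cells of a type and less RNA per cell cannot be told apart.

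At day 1 most of the chain was higher in the 85%-labelled libraries. Of 92 members 66 were called higher and 2 lower, beside 20.6% and 20.8% of all genes, with a median log2 difference of 0.86 against 0.03 over all genes, and the libraries of the arms did not overlap for 68 members (73.9%), beside 53.1% of all genes. In complex I, 24 of 28 accessory subunits, 4 of 7 core subunits and 6 of 8 assembly factors were called higher. In complex II it was 3 of 4, in complex III 5 of 9, in complex IV 13 of 18 and in ATP synthase 9 of 15.

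Cytochrome c, the soluble carrier between complexes III and IV, had the smallest p: Cycs (chromosome 4, 80331227 to 80333326) had 117, 83.2 and 96.8 CPM against 39.8, 36.0 and 44.8 CPM (1.30 ± 0.21, adjusted p = 3.20e-04). All libraries labelled 85% were above all labelled 21%. The complex I accessory subunit Ndufa11 had 257, 137 and 226 CPM against 83.6, 68.2 and 73.6 CPM (1.46 ± 0.25, adjusted p = 4.64e-04), and the row of the complex III subunit Uqcrb on chromosome 7 had the highest difference, 2.06 ± 0.37.

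Several catalytic and core subunits were not called. Ndufs1, the large iron-sulphur subunit of complex I, had 82.9, 71.1 and 74.5 CPM against 71.3, 75.4 and 81.6 CPM (0.00 ± 0.11, adjusted p = 0.994). Sdha, the flavoprotein of complex II, had -0.38 ± 0.13, below the size for a call, whereas its partner Sdhb, the iron-sulphur protein, was called at 0.63 ± 0.15 (adjusted p = 0.00260). Uqcrc1, Uqcrfs1 (the Rieske protein), Cox5a and Atp5f1b lay between 0.03 and 0.17, each with an adjusted p above 0.2.

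The 2 members called lower were Uqcrc2, a core protein of complex III, and Atp5f1a, the alpha subunit of ATP synthase. Uqcrc2 had 22.8, 103 and 33.1 CPM against 107, 120 and 119 CPM (-1.12 ± 0.34, adjusted p = 0.00991), and Atp5f1a had 209, 488 and 308 CPM against 504, 513 and 529 CPM (-0.62 ± 0.18, adjusted p = 0.00834). In both genes replicates 1 and 3, the libraries with 19.1% and 11.5% mitochondrial counts, were low, and replicate 2, with 5.31%, lay near the 21%-labelled libraries.

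The day 1 difference followed gene length in members and in other genes alike. Members under 500 bases had a median of 1.13, those from 500 up to 1000 bases 0.86, those from 1000 up to 2000 bases 0.73 and the 7 members of 2000 bases and over 0.17. Other protein-coding genes of the same classes had 0.64, 0.55, 0.25 and -0.16. The members were thus above the other genes in each class; this difference was not tested. With the length correlation of each library as a covariate, 1 member stayed called, Cycs (0.77, adjusted p = 0.0458), with the mitochondrial share as a covariate none did by edgeR (4 members at an unadjusted p under 0.05), and without the libraries above 6% mitochondrial counts, which left a single 85%-labelled library at that age, 1 did. Of all genes tested, 1.45%, 0.159% and 1.37% were called in these 3 fits, so the calls fell away across the table and not in the members alone. Neither the mitochondrial share nor the length correlation overlapped between the arms at that day, so neither can be told apart from the label.

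**Figure D3:**
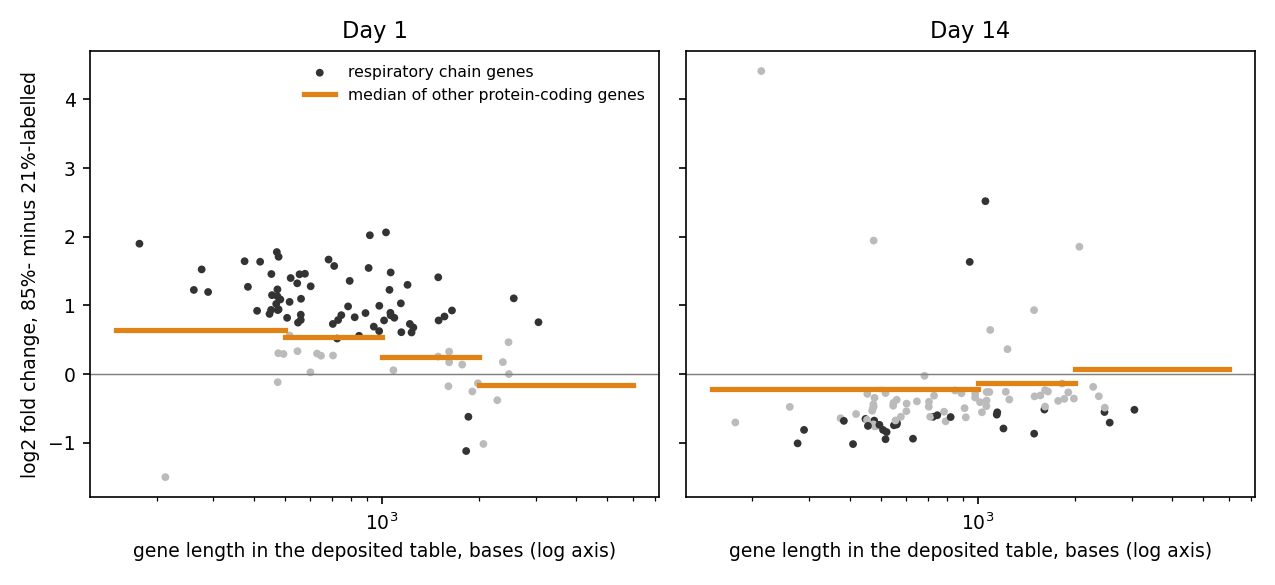
Log2 difference between the 85%- and the 21%-labelled group against gene length (log axis) at day 1 and day 14. Each point is a respiratory chain gene, black where called and grey where not, and orange bars are medians of other protein-coding genes in 4 length classes, from 0.64 down to -0.16 at day 1; Cox8b is left out for its few counts.

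At day 3, 0 of 92 members were called in either direction by edgeR and by DESeq2, with 1 at an unadjusted p under 0.05, beside 0.313% of all genes called higher and 0.0797% lower. At day 7 the count was likewise 0 by both tools, with 5 at an unadjusted p under 0.05, beside 0.0341% and 0.0512%. Leaving out 85%-labelled replicate 3 of day 7 gave 3 called higher. Cox4i2 had 125, 139 and 135 CPM against 58.7, 59.7 and 98.2 CPM at day 3 and 70.3, 87.8 and 56.9 against 29.7, 43.2 and 37.8 CPM at day 7; the groups did not overlap on either day, as for 12.8% and 27.2% of all genes, and the adjusted p was 0.294 and 0.159.

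At day 14 the chain was lower in the 85%-labelled libraries. Of 92 members 26 were called lower and 3 higher, beside 10.8% and 10.5% of all genes, with a median of -0.48 against 0.01 over all genes; 83 members had a negative difference, and the libraries of 70 (76.1%) did not overlap, beside 50.1% of all genes. By role the called lower members were 7 of 28 accessory and 2 of 7 core subunits of complex I, 2 of 8 assembly factors, 1 of 4 in complex II, 3 of 9 in complex III, 3 of 18 in complex IV, 6 of 15 in ATP synthase, and Cycs and Atp5if1. The members called higher were Cox4i2, Ndufa4l2 and Cox8b.

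Sdhc, the membrane anchor of complex II, had 102, 97.2 and 101 CPM against 158, 131 and 152 CPM (-0.56 ± 0.14, adjusted p = 0.00413). Uqcr10, a small subunit of complex III, had 8.33, 8.15 and 6.99 CPM against 15.8, 13.0 and 18.8 CPM (-1.02 ± 0.25, adjusted p = 0.00425). Ndufb6, an accessory subunit of complex I, had 23.1, 20.3 and 22.7 CPM against 46.1, 37.3 and 43.6 CPM (-0.94 ± 0.24, adjusted p = 0.00493). In each of these genes the 3 libraries labelled 85% were close together and below all 3 labelled 21%. Cycs had 34.6, 38.5 and 35.3 CPM against 70.7, 48.2 and 68.9 CPM (-0.79 ± 0.20, adjusted p = 0.00579). Of complex IV, Cox6a1 (-0.74 ± 0.21) and Cox8a (-0.74 ± 0.22) were called, and Cox4i1 (-0.31 ± 0.23, adjusted p = 0.347) and Cox7a2 (-0.35 ± 0.23, adjusted p = 0.292) were not. Ndufs1 and Ndufv1, core subunits of complex I, passed on p (adjusted p = 0.00141 and 0.0158) but not on size, at -0.49 and -0.47.

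Length classes showed the day 14 difference too, from -0.65 in members under 500 bases to -0.36 in those from 1000 up to 2000 bases, beside -0.21 and -0.13 in other genes; the 7 members of 2000 bases and over had -0.49, beside 0.08. Neither the length correlation nor the mitochondrial share overlapped between the arms at that day, so neither can be told apart from the label. With the length correlation as a covariate 10 members (10.9%) were called, 5 in each direction, beside 25.1% of all genes. Those shared with the fit without it numbered 7: Cox4i2 (2.92), Ndufa4l2 (1.98), Cox8b, Cycs (-0.51), Atp5if1 (-0.51), Ndufb6 (-0.62) and Uqcr10 (-0.59). The 3 others were Cox7a2l (0.80), Ndufaf6 (0.93) and Ndufs1 (-0.57), and the genes of this list outside the naming rule were chosen after their values were seen. The count of 29 fell to 16 when the first and to 18 when the third 85%-labelled replicate was left out, and to 9 and 14 when the first or the third 21%-labelled replicate of that day was.

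**Figure D4:**
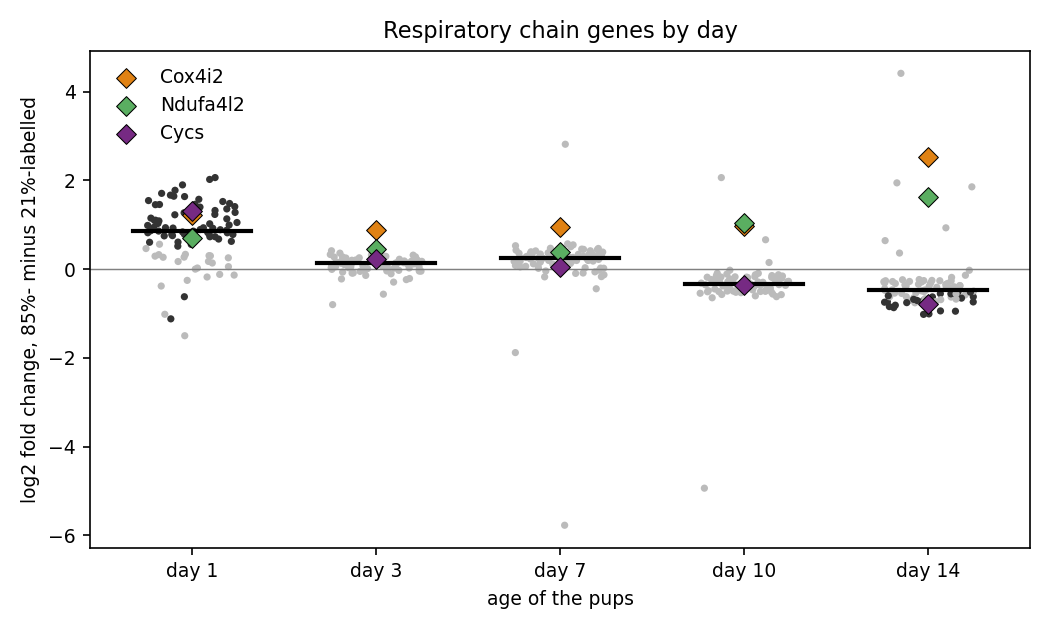
Log2 difference between the 85%- and the 21%-labelled group for each respiratory chain gene on each day, black where called and grey where not, with bars at the medians (0.86 at day 1 and -0.48 at day 14). Diamonds mark Cycs, which goes from 1.30 to -0.79, and Cox4i2 and Ndufa4l2, which lie above 0 on all 5 days without a covariate; 1.23 and 0.69 are their day 1 values, which turn negative with the mitochondrial share as a covariate. Cox8b is left out.

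The change of the arm difference over the days was tested directly. Over the 5 days 68 of 92 members changed (F test, adjusted p under 0.05), beside 37.6% of all genes, with Cycs (adjusted p = 1.83e-04), Atp5mc1, a c-ring subunit of ATP synthase (adjusted p = 3.17e-04), and Sdhc (adjusted p = 9.39e-04) at the smallest p. With the length correlation as a covariate 17 changed, with the mitochondrial share 16, and over days 3 to 14, a test chosen after seeing the data, 8. The shares were 18.5%, 17.4% and 8.70% of members beside 17.5%, 19.6% and 13.0% of all genes, near or below those of the table. Cox4i2 changed in each of these fits (adjusted p = 1.17e-04, 1.51e-04 and 0.0215).

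From days 3 and 7 to days 10 and 14 the arm difference of 28 members fell and that of 2 rose, beside 6.30% and 5.79% of all genes, and the median shift was -0.59. Among those that fell, the smallest p were those of Ndufa2 (-0.83 ± 0.19) and Ndufb9 (-0.80 ± 0.19), both complex I accessory subunits, and Atp5if1, the peptide that blocks reverse action of ATP synthase (-1.01 ± 0.24). Ndufa4l2 rose (0.92 ± 0.27, adjusted p = 0.0268) and Cox8b rose. Under the length correlation the calls were 3 higher and 0 lower, beside 4.29% and 3.63% of all genes, with a median of -0.07: Cox4i2 (1.48), Ndufa4l2 (1.47) and Cox7a2l (0.62). The count of 30 was 19 without 85%-labelled day 3 replicate 3, without 85%-labelled day 7 replicate 2 or without 21%-labelled day 14 replicate 1. It was 53, 52, 56, 56 and 48 without 21%-labelled day 3 replicate 3, 85%-labelled day 7 replicate 3, 85%-labelled day 10 replicate 2, 21%-labelled day 10 replicate 3 and 21%-labelled day 14 replicate 2.

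Within the 21%-labelled arm, from day 1 to day 14, 4 members rose and 4 fell, beside 9.04% and 10.1% of all genes. Those that rose were Atp5mc1 (0.70 ± 0.19), Cycs (0.64 ± 0.20), Ndufb6 (0.66 ± 0.24) and the assembly factor Ndufaf7 (0.52 ± 0.17). Those that fell were Cox4i2, Ndufa4l2, Cox8b and Cox7a2l, which links complexes III and IV (-0.72 ± 0.25, adjusted p = 0.0388). The count of 8 was 4 without 21%-labelled day 1 replicate 2, 4 without 21%-labelled day 14 replicate 1 and 5 without 21%-labelled day 14 replicate 3. In the 85%-labelled arm 73 fell and 1 rose, beside 26.0% and 25.1% of all genes, with a median of -1.11. The gene that rose was Atp5pb, named after its value was seen (2.70 ± 0.98), whose counts are erratic. The smallest p were those of Cycs (-1.45 ± 0.21), Ndufab1, the mitochondrial acyl carrier protein (-1.61 ± 0.23), and Ndufc1 (-1.63 ± 0.24). With the length correlation as a covariate no member was called in that arm by edgeR, with 20 at an unadjusted p under 0.05, beside 4.72% of all genes called; DESeq2 without it called 2 higher and 72 lower. In the 85%-labelled arm neither the length correlation nor the mitochondrial share overlapped between day 1 and day 14. Neither can be told apart from age there. The mitochondrial share did not overlap between these days in the 21%-labelled arm either, at 2.71% to 3.03% against 3.33% to 3.77%. Both comparisons within an arm share their day 1 and day 14 libraries with the comparisons of the arms.

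Of the muscle forms, Cox8b and Cox6a2 were high in libraries that were high in muscle markers. Cox8b had 20, 40 and 122 counts in the 85%-labelled and 0, 0 and 1 counts in the 21%-labelled libraries at day 14, a ratio of 188 with a 95% exact interval from counting of 33.3 to 7458. Of 8 cardiac muscle markers 7 were called higher at that day, beside 10.5% of all genes. Myh6, a myosin heavy chain of heart muscle, stood at 37.3, 86.5 and 368 CPM against 0, 0.182 and 0.122 CPM. Replicate 3, highest in Myh6, was also highest in Cox8b and in Cox6a2 (8.37 CPM against 1.14 and 2.59 CPM in the other libraries). At day 10 the 85%-labelled replicate 1 alone had 891 CPM of Acta1, the actin of skeletal muscle, and it had 270 counts of Cox6a2 where the other libraries of its group had 6 and 0. Cox6a2 was called on no day (adjusted p from 0.330 to 0.975), and Cox7a1 did not follow the markers, with 9, 23 and 3 counts in the 85%-labelled libraries at day 14 and 12, 4 and 4 at day 10, and at most 51 counts in any library. Of 4 brown fat markers 1 passed the filter, and Ucp1, the defining one, was at 0 in 27 of 30 libraries. How far heart or muscle tissue in the samples sets the levels of these forms was not tested.

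**Figure D5:**
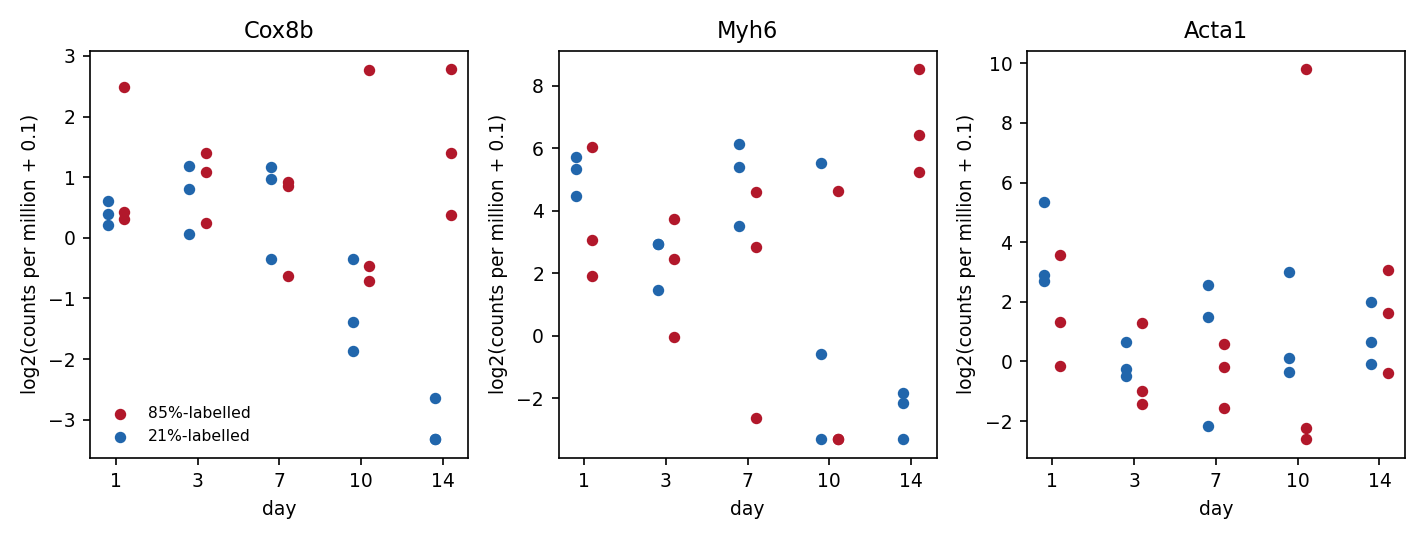
Cox8b, Myh6 (heart muscle) and Acta1 (skeletal muscle) in each library by day, as log2(CPM + 0.1), red for 85%-labelled and blue for 21%-labelled. The lowest points of Cox8b and Myh6 are libraries with 0 counts. At day 14 the 3 libraries labelled 85% are above the 3 labelled 21% in Cox8b and Myh6, and at day 10 a single library is high in Acta1.

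Cox6b2, known as a testis form, was found in every library at 5.75 to 38.5 CPM and made up 5.91% to 14.5% of the summed FPKM of Cox6b1 and Cox6b2. Its difference was called at day 1 (1.02 ± 0.33, adjusted p = 0.0141) and at no later day. With the mitochondrial share or the length correlation as a covariate the day 1 value was -0.63 or -0.03 and was not called. Its share at day 1 was 9.79% to 12.4% in the 85%-labelled libraries against 11.5% to 14.5%, so the arms overlapped.

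Among other genes of the pathway, all 13 mitochondrially encoded subunits were called higher at day 1 (median 2.25), led by ND4L (1.98 ± 0.27) and ND2 (2.14 ± 0.31), and none at days 3, 7 or 14. Of 36 tested assembly factors and cytochrome c1, 17 were higher and 2 lower at day 1, among them Cox18 (1.22 ± 0.23) and Cox19 (0.75 ± 0.15), and 4 were lower at day 14, with Ttc19, a complex III factor (-0.71 ± 0.17), and Coa4 (-0.85 ± 0.23) first. Of 20 regulators of mitochondrial biogenesis 6 were higher and 5 lower at day 1, with Tfb2m (1.62 ± 0.27) and Tfb1m (1.44 ± 0.25) first, and at day 14 the 2 called were Esrra, a nuclear receptor that drives respiratory genes (-0.88 ± 0.14, adjusted p = 7.65e-05), and Pprc1 (-0.55 ± 0.17). Of 15 genes of the citric acid cycle and pyruvate entry, 2 were higher and 3 lower at day 1, with Pdhb (0.70 ± 0.14) and Ogdh (-2.62 ± 0.60) first. At day 14, 3 were lower, with Idh3a (-0.63 ± 0.12) and Fh (-0.65 ± 0.14) first. The shares of all genes were 20.6% higher and 20.8% lower at day 1 and 10.5% and 10.8% at day 14. Near these shares lay the counts of the regulators on both days, of the citric acid cycle at day 1 and of the assembly factors at day 14. At day 14 the citric acid cycle had 3 lower and 0 higher of 15, with a median of -0.35. Its summed level then was 1341 to 1400 CPM in the 85%-labelled libraries against 1657 to 1789 CPM, without overlap.

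Markers of other lung cells differed between the arms too. All 3 endothelial markers were higher at day 14 and 2 of 3 at day 10. At day 1, 1 was higher and 2 lower. Of 6 epithelial markers 3 were higher and 1 lower at day 1 and 3 were lower at day 14. Of 7 erythroid markers 6 were higher at day 3 and in the mean of the 5 days. Of all genes, 20.6% were higher and 20.8% lower at day 1, and 10.5% and 10.8% at day 14. At day 3, at day 10 and in the mean, 0.313%, 1.75% and 6.32% of all genes were higher. No difference of the marker counts from those shares was tested. The part of cell composition in the respiratory chain differences was not tested.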

How the data were processed

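RNA-seq of whole rat lung was deposited by the authors as read counts per gene and FPKM values, with gene length and type; GRCm38 and mm10, which are mouse builds, stand in the submitters' processing notes, while the gene identifiers are rat ones, and the labels name neither aligner nor strand setting. Libraries were made with an mRNA kit, per the labels' protocols. The 96 genes and all lists were chosen with earlier results of these data known. Counts of 17571 genes passing filterByExpr were scaled by TMM and fitted with edgeR 4.0.16 (R 4.3.3), robust quasi-likelihood, 1 mean for each of 10 groups of 3; p-values were adjusted by Benjamini-Hochberg over all genes. A call needs an adjusted p under 0.05 and a log2 size of at least 0.5. SE is the log2 difference over the root of F. Named genes were a fixed set of 23 subunits and, per comparison, up to 3 called members with the smallest p in each direction at a mean log2 CPM of at least 3. Steps were tested on simulated data. Alternatives were DESeq2 1.42.0 and its size factors, no filter, no size threshold, covariates, a replicate block and left-out libraries. Intervals cover counting error only.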

Additional observations from a re-analysis of the deposited data

Results flagged for a closer look

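The difference between the arms changed over the 5 days in 14 of the named genes (edgeR F test, adjusted p over all genes). The share that changed was 73.9% of the members tested and 37.6% of all genes. Atp5mc1 and Sdhc were named for their small p in this same test, so the count of 14 is partly set by selection. The named genes not among the 14 were Uqcrc1, Ndufa4l2, Cox6b2, Ndufb8, Uqcrfs1, Cox5a, Cox7a1, Atp5f1a, Cox6a2, Cox7a2l and Sdha. The adjusted p was 1.83e-04 for Cycs, 3.17e-04 for Atp5mc1, 9.39e-04 for Sdhc, 0.00236 for Ndufa4, 0.00362 for Cox6a1 and 0.00659 for Sdhb. It was 0.00764 for Cox8b, 0.0107 for Ndufv1, 0.0130 for Cox7a2, 0.0141 for Ndufs1 and 0.0147 for Cox4i2. It was 0.0246 for Cox4i1, 0.0275 for Atp5f1b and 0.0361 for Cox8a. Cycs went from 1.30 at day 1 to -0.79 at day 14, whereas Cox4i2 went from 1.23 to 2.52. With the mitochondrial share as a covariate only Cycs, Atp5mc1, Cox4i2 and Cox8b of the 14 still changed. With the length correlation it was Cycs, Atp5mc1, Sdhc, Ndufa4, Ndufs1 and Cox4i2.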

How the results depend on the processing

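Counts of members called kept within 1.5 times of the reported count in all comparisons with the other size factors and without mitochondrially encoded genes. With the mitochondrial share as a covariate they were 0 at day 1, 1 at day 7, 11 at day 10, 16 for the change between days and 1 for day 14 minus day 1 in the 85%-labelled arm. With the length correlation as a covariate they were 1 at day 1, 2 at day 10, 10 at day 14, 3 for late minus early days, 17 for the change between days and 0 in the 85%-labelled arm. Without libraries above 6% mitochondrial counts they were 1 at day 1, 1 at day 3, 4 at day 10 and 54 for late minus early days. Without a filter they were 0 at day 10 and 5 in the 21%-labelled arm, by DESeq2 5 at day 10, with the day's libraries alone 0 at day 10, without a size threshold 10 for the mean, and without day 1 8 for the change between days. The causes were not tested; where a single library of a group was left, it was assumed to vary like the other groups. Leaving out 1 library gave 0 to 3 at day 7, 0 to 3 at day 10, 9 to 37 at day 14, 3 to 6 for the mean, 19 to 56 for late minus early days and 4 to 10 in the 21%-labelled arm.

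Replicate numbers are shared between arms. For 2 libraries of a day, r is the correlation over genes of their deviations from their group means, in log CPM. It was over 0.1 in 8 of 15 same-number pairs. The highest r of all, 0.545, was between unlike numbers, 85%-labelled replicate 1 and 21%-labelled replicate 3 of day 10. Deviations from a mean of 3 sum to 0, so the r of a day depend on each other. All same-number pairs were positive at days 1, 3 and 7, from 0.00783 to 0.303. They were mixed at day 10, from -0.258 to 0.475, and all negative at day 14. What the numbers stand for was not tested. With the numbers as a replicate block 2 members were called at day 10 and 46 for late minus early days, and other counts stayed within 1.5 times.

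Called values of named genes reversed as follows, each falling short of the threshold after reversal. At day 1 the mitochondrial share gave -0.12 for Uqcrb on chromosome 7, 0.25 for Atp5f1a, 0.56 for Uqcrc2, -0.17 for Cox4i2, -0.00719 for Sdhb, -0.22 for Cox4i1, -0.63 for Cox6b2, -0.0216 for Ndufa4l2 and -0.29 for Cox7a2l. The length correlation gave -0.0827 for Cox4i1, -0.0304 for Cox6b2, -0.0588 for Ndufa4l2 and -0.28 for Cox7a2l. In the 85%-labelled arm the length correlation gave 0.10 for Cox4i1, 0.0778 for Cox6a1, 0.26 for Cox7a2l, 0.0168 for Ndufa4l2 and 0.17 for Cox8a, and the mitochondrial share gave 0.16 for Cox4i2. Cox7a2l, not called for late minus early days (-0.10), was called on the other side with the length correlation (0.62, adjusted p = 0.00528), and Uqcrc2 in the 85%-labelled arm went from 0.78, not called, to -0.98 with the mitochondrial share (adjusted p = 0.0288).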

Other observations

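Of the 81 member promoters 38 (46.9%) held at least 1 of the NRF1, ETS and YY1 motifs, against 14.0% of the promoters of other genes. Ppargc1b, a coactivator of mitochondrial biogenesis, had a log2 difference of -3.41 ± 0.65 at day 1 (edgeR, adjusted p = 6.63e-04), while most respiratory chain genes were higher on that day; its name was added after its values were seen.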
